A study of Homo sapiens with 4 samples.

Results

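The 36 genes described here encode the enzymes of glycolysis, the kinases that steer its rate and its exit into the mitochondria, and the proteins that sense low oxygen or are induced by it. They were picked by symbol for their place in these pathways, with earlier results of these data known, and all 36 were among the 15357 genes listed in the deposited tables. RNA sequencing was done on RKO cells, a human colorectal cancer line, infected with lentivirus for stable shRNA expression. The 2 control samples carry the treatment and genotype label control and are titled vector, and the 2 CHD7 shRNA-2 samples are titled shCHD7_2 and carry the genotype label CHD7 knockdown. CHD7 is an ATP-dependent chromatin remodeler, and the comparison asks which transcripts change when it is depleted. A single CHD7 shRNA was sequenced, so the loss of CHD7 and any other effect of that shRNA cannot be told apart. All samples were grown in Eagle's Minimum Essential Medium with fetal bovine serum in a humidified incubator, and no label names a low-oxygen treatment.

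Glycolysis splits glucose into pyruvate in the cytosol. Lactate dehydrogenase turns pyruvate into lactate, while the pyruvate dehydrogenase kinases hold back its entry into the mitochondria. Under normal oxygen the prolyl hydroxylases of the EGLN family mark the alpha subunits of the hypoxia-inducible factors (HIF) for capture by the ubiquitin ligase adaptor VHL and destruction. When oxygen falls the alpha subunit is spared, pairs with ARNT and binds short DNA elements near its target genes, many of which encode glycolytic enzymes.

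Each library held between 15734679 and 16068650 estimated counts, and 34 of the 36 genes had enough counts to enter the test, out of 11955 genes tested in all. CHD7 itself stood at 85.4 and 91.0 CPM (the count scaled to library size and composition) in the control samples and at 55.5 and 50.1 CPM with CHD7 shRNA-2, a log2 fold change of -0.74 (SE 0.088, adjusted p = 4.2e-06, edgeR). AK4, an adenylate kinase and known HIF-1 target that is no member here, fell from 149.2 and 154.7 to 90.05 and 80.6 CPM, a log2 fold change of -0.83 (SE 0.083, adjusted p = 3.0e-07, edgeR). Of 11 colon epithelial markers, EPCAM, KRT8, KRT18 and CDX2 were present in every sample. KRT18 was at 51.9 to 65.6 FPKM (fragments scaled to transcript length and library size). The markers CDH1, CDH17, KRT20 and LGALS4 did not exceed 0.01, 0.02, 0.04 and 0.07 FPKM, and KRT19, VIL1 and MUC2 were not listed. The summed FPKM of the 3 listed fibroblast markers ranged from 0.03 to 0.05 in the control and from 0.11 to 0.13 in the CHD7 shRNA-2 samples, and that of the 2 listed endothelial markers did not exceed 0.03. Among 6 leukocyte markers CD14 and LYZ stayed at or under 0.34 FPKM, and CD68, a lysosomal protein, was at 529 and 495 FPKM in the control and 602 and 611 FPKM in the CHD7 shRNA-2 samples (adjusted p = 0.062 on the counts, edgeR), a difference whose part in the results was not tested.

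The promoters below show the genes that the results turn on together with the short element that HIF binds. The first 4 belong to the members with the smallest adjusted p among those with a promoter entry, LDHA is a classical HIF target that did not pass the test, and PGAM1 is the member that leaned furthest in the other direction. Each runs 5′ to 3′ on the gene's own strand from 250 bases before to 50 bases after a transcription start in RefSeq on GRCh38.p14. Capitals mark the HIF core words ACGTG and GCGTG on either strand, so that CACGT and CACGC are capitalized too.
CA9, chr9:35673678-35673977, plus strand: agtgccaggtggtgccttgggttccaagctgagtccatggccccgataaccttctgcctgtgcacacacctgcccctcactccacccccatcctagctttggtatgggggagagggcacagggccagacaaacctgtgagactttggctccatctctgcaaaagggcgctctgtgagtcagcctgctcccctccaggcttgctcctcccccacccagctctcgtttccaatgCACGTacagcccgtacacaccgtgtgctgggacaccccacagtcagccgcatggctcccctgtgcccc
PFKFB4, chr3:48556754-48557053, minus strand: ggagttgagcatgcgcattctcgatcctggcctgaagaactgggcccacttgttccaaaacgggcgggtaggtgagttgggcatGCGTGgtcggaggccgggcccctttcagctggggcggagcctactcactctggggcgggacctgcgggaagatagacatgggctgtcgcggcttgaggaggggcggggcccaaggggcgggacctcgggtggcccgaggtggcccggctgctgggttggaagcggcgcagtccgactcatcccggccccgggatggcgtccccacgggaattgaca
P4HA1, chr10:73096817-73097116, minus strand: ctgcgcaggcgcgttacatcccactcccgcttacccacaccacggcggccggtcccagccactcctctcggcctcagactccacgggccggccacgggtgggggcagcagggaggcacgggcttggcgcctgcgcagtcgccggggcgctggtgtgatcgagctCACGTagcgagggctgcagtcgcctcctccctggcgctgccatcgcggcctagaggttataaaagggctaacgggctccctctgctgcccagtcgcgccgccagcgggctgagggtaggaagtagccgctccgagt
ENO2, chr12:6914330-6914629, plus strand: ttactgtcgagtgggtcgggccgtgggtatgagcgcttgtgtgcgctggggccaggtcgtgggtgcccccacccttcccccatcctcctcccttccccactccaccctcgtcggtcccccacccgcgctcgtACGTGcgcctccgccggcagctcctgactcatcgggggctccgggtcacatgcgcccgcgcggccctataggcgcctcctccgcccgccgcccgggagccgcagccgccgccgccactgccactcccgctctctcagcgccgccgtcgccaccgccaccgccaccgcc
LDHA, chr11:18394313-18394612, plus strand: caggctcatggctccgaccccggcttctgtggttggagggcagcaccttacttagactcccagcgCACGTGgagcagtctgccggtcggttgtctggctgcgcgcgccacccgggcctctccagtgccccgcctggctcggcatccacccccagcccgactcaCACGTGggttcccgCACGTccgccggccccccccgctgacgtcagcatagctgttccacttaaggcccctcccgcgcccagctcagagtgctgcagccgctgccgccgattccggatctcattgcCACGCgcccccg
PGAM1, chr10:97427568-97427867, plus strand: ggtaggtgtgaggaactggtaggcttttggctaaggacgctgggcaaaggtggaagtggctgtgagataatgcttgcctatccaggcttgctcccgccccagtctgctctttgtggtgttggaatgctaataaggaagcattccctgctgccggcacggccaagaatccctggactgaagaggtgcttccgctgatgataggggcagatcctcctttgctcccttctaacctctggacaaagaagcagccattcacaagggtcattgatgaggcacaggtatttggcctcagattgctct
The CA9 promoter holds 1 core word, 18 bases before the start. In P4HA1 the single word lies 86 bases before the start, in ENO2 118 bases before it, and PFKFB4 holds a single GCGTG 166 bases before it. The LDHA promoter holds 6 matches, counting the palindrome CACGTG once for each strand, and the PGAM1 window holds 0. In GENCODE annotation the PGAM1 gene begins at position 97426160 of chromosome 10, so its window lies inside the gene. The bases before that position were not searched, so the absence of a word holds for the printed window only. The windows of PFKFB4 and ENO2 also lie inside the annotated genes.

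RefSeq promoters were matched by symbol for 32 of the 36 members, leaving VHL, BNIP3L, NDRG1 and VEGFA. Counting a gene when any of its annotated starts holds a word, ACGTG was present in 19 of the 32 (59.4%), in 8 of the 11 matched members that fell (72.7%) and in 10 of the 19 matched members that did not pass the test (52.6%). The share was 32.9% among the 9457 tested genes with an entry and 24.9% among all 27305 genes with an entry. The sets differ in annotated starts: 55 for the 32 members, 14 for the 11, 39 for the 19 and 13821 for the 9457 tested genes. Members were also picked partly as hypoxia-response genes, so their share is no independent result. With GCGTG allowed as well, 28 of the 32 members (87.5%) and 71.3% of the tested genes held a word. Over all 35116 promoters of this length, 21.4% held ACGTG, 36.5% GCGTG and 48.4% at least 1 of them. These matches describe the letters in the window and do not show binding.

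After CHD7 knockdown 13 of the 34 tested members fell at an adjusted p under 0.05 and 0 rose, as tested by quasi-likelihood in edgeR, with p-values adjusted over all tested genes by the Benjamini-Hochberg method. Among all tested genes 6.54% passed as lower and 4.94% as higher. In addition 6 members that missed the adjusted threshold were lower and 1 was higher at an unadjusted p under 0.05. With those past the adjusted threshold included, 19 of the 34 members were lower and 1 was higher at that unadjusted p. Of all 11955 tested genes 1587 were lower and 1448 higher at the same level. DESeq2 called 4.27% of all tested genes lower, and among the members it called 11 lower and 0 higher. Without control sample 1 the members' median log2 fold change was -0.215, and without control sample 2 it was -0.195. Fewer members, and fewer of all tested genes, passed in these fits, each of which held a single control sample. The count of members called lower was 3 in edgeR and 0 in limma when no filter on low values was used. Without that filter 0.884% of all genes in the edgeR fit and 0.113% of those in the limma fit were called lower. The fold changes were small: the median over the 34 members was -0.21 on the log2 scale, against 0.00056 over all tested genes. The study's threshold of 1.5-fold was passed by 1 member, CA9, with 1.37% of all tested genes passing it as lower and 1.51% as higher. In 29 of the 34 members both CHD7 shRNA-2 samples lay below both control samples, which held for 27.3% of all tested genes.

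The 21 glycolysis members included 9 that fell, and the 13 tested hypoxia members included 4. Together the 36 genes took 1.81% and 1.78% of all estimated counts in control cells against 1.57% and 1.62% after knockdown. With GAPDH left out the shares were 1.36% and 1.34% against 1.2% and 1.23%. Abundant genes as a whole leaned lower in these libraries, so the members were also set beside genes of like abundance. At a mean of at least 500 CPM, 5 of 10 members fell against 30 of 214 other genes, and the median log2 fold changes were -0.17 and -0.089. At a mean of at least 100 CPM, 9 of 20 members fell against 254 of 2362 other genes, with medians of -0.20 and -0.028. Both CHD7 shRNA-2 samples lay below both control samples in 9 of 10 members and 111 of 214 other genes of at least 500 CPM. At a mean of at least 100 CPM this held for 18 of 20 members and 844 of 2362 other genes.

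**Figure D1:**
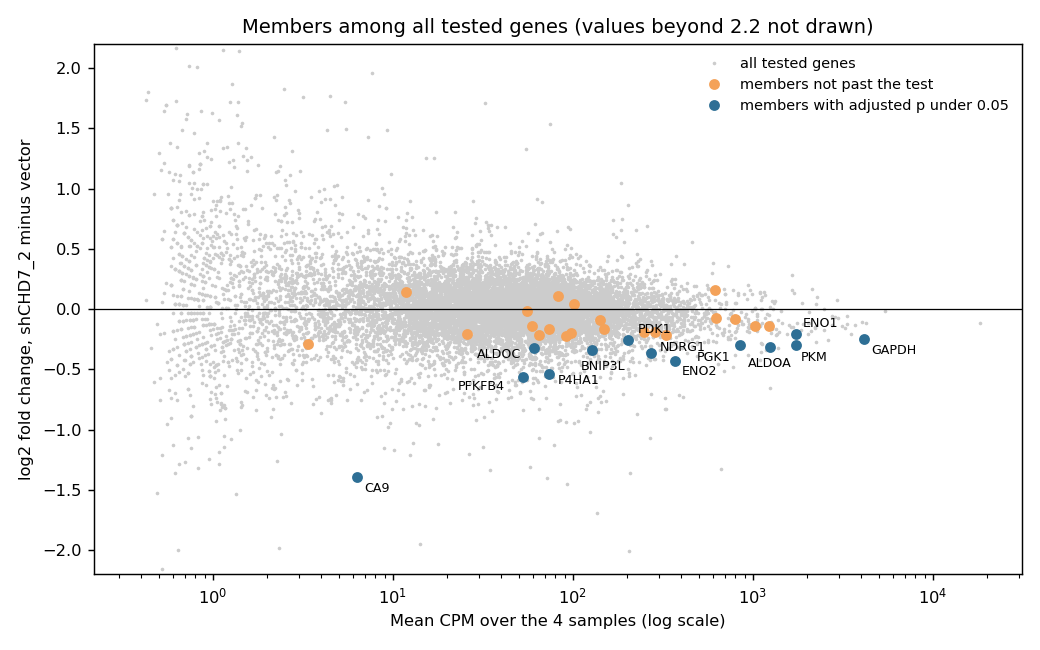
Log2 fold change (shCHD7_2 minus vector) against the mean CPM over the 4 samples for every tested gene (grey points), with the tested members drawn as larger points in blue where the adjusted p was under 0.05 and in orange where it was not. The 13 blue points all lie below 0, and CA9, at -1.40, lies apart from the others.

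The upper steps of glycolysis leaned lower without passing the test. Hexokinases trap glucose in the cell by phosphorylation, and HK2 was at 348.1 and 358.9 CPM in the control samples against 317.9 and 292.4 CPM with CHD7 shRNA-2 (log2 fold change -0.21, SE 0.074, adjusted p = 0.065, edgeR). HK1 gave -0.19 (SE 0.072) and GPI, which isomerizes glucose 6-phosphate, -0.075 (SE 0.070). The phosphofructokinase subunits PFKL, PFKM and PFKP, which form the committed step, had log2 fold changes of -0.17, -0.19 and -0.17. In all 6 genes the CHD7 shRNA-2 samples lay below the control samples, and 0 of the 6 passed. HK2 passed when CHD7 shRNA-2 sample 1 was left out (adjusted p = 0.011, edgeR), and PFKP passed without CHD7 shRNA-2 sample 2 (adjusted p = 0.042, edgeR).

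The paired kinase and phosphatase enzymes of the PFKFB family set the level of fructose 2,6-bisphosphate, the strongest activator of phosphofructokinase, and their 2 members behaved differently. PFKFB4 was at 62.4 and 63.0 CPM in the control samples and at 40.9 and 43.9 CPM after CHD7 knockdown, a fall of 32.4% (log2 fold change -0.56, SE 0.088, adjusted p = 1.3e-04, edgeR). The change fell just short of 1.5-fold, and the groups did not overlap. PFKFB3 stood at 23.8 and 24.4 FPKM in control cells against 26.4 and 25.3 FPKM after knockdown (on CPM, log2 fold change 0.043, SE 0.081, adjusted p = 0.79, edgeR). The difference between the changes of the pair was not tested.

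ALDOA, the main aldolase of muscle and most other tissues, fell from 1427 and 1333 CPM to 1053 and 1169 CPM (log2 fold change -0.31, SE 0.072, adjusted p = 0.0054, edgeR). ALDOC, the brain-type aldolase, fell from 72.0 and 63.7 CPM to 54.3 and 54.4 CPM, a log2 fold change of -0.32 (SE 0.089, adjusted p = 0.020, edgeR). Triose phosphate isomerase, TPI1, which interconverts the products of aldolase, gave -0.085 (SE 0.071, adjusted p = 0.49, edgeR), with 833.7 and 805.9 CPM in control cells against 740.5 and 805.0 CPM after knockdown. Both aldolase calls were lost without control sample 1, with log2 fold changes of -0.26 for ALDOA and -0.23 for ALDOC. In 9 other settings of the test ALDOA passed in 7 and ALDOC in 5. ALDOC missed the threshold in DESeq2 (adjusted p = 0.065) and with a replicate block (adjusted p = 0.12, edgeR).

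In lower glycolysis 5 of 6 members fell. GAPDH, which couples oxidation of the triose to NADH formation and was the most abundant member, dropped from 4573 and 4410 CPM in control cells to 3667 and 3887 CPM (log2 fold change -0.25, SE 0.065, adjusted p = 0.013, edgeR). PGK1, the first ATP-forming enzyme of the pathway, went from 917.4 and 957.2 CPM to 753.7 and 768.7 CPM (log2 fold change -0.30, SE 0.069, adjusted p = 0.0052, edgeR). PKM, the pyruvate kinase, went from 1936 and 1878 CPM to 1494 and 1611 CPM, also a log2 fold change of -0.30 (SE 0.068, adjusted p = 0.0052, edgeR). For these genes the groups did not overlap.

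The enolases form phosphoenolpyruvate. ENO1, the widespread form, fell from 1893 and 1829 CPM to 1562 and 1655 CPM (log2 fold change -0.21, SE 0.067, adjusted p = 0.044, edgeR). ENO2, the form best known from neurons, fell further, from 427.8 and 418.3 CPM to 313.8 and 314.4 CPM (log2 fold change -0.43, SE 0.071, adjusted p = 2.5e-04, edgeR). PGAM1, the phosphoglycerate mutase between PGK1 and the enolases, was the exception, with 587.2 and 570.9 CPM in control cells against 638.6 and 651.5 CPM after knockdown. The log2 fold change of 0.16 (SE 0.069) did not pass (adjusted p = 0.16, edgeR), although both CHD7 shRNA-2 samples lay above both control samples.

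Of these calls only that of ENO2 held with each of the 4 samples left out in turn, although the fold changes of the others stayed of similar size. Without control sample 1 and without control sample 2 the log2 fold changes were -0.23 and -0.28 for GAPDH and -0.28 and -0.32 for PKM. Without control sample 1 the adjusted p (edgeR) was 0.21 for GAPDH, 0.36 for ENO1 and 0.12 for PKM. Without control sample 2 it was 0.14 for GAPDH, 0.19 for PGK1, 0.27 for ENO1 and 0.072 for PKM, and without CHD7 shRNA-2 sample 1 it was 0.070 for ENO1. In 9 other settings of the test ENO1 passed in 3 and GAPDH in 5. PFKFB4, ENO2, P4HA1 and CA9 passed with any 1 of the 4 samples left out. The glycolytic mRNAs have processed pseudogenes that are near copies of them, and 0 rows of the table carried a pseudogene symbol of a member, so reads shared with such copies could not be followed. PGAM4, the nearest copy of PGAM1 with a row, held between 0 and 3.33 estimated counts in a sample.

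GAPDH, TPI1 and ENO2 are close neighbours on chromosome 12 of GRCh38 in GENCODE 29 annotation. GAPDH spans chr12:6533927-6538374, TPI1 chr12:6867119-6870948 and ENO2 chr12:6913745-6923698, all on the plus strand. Of these neighbours ENO2 had the largest fall, at -0.43, followed by GAPDH at -0.25, and TPI1, which lies between them, had a log2 fold change of -0.085.

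**Figure D2:**
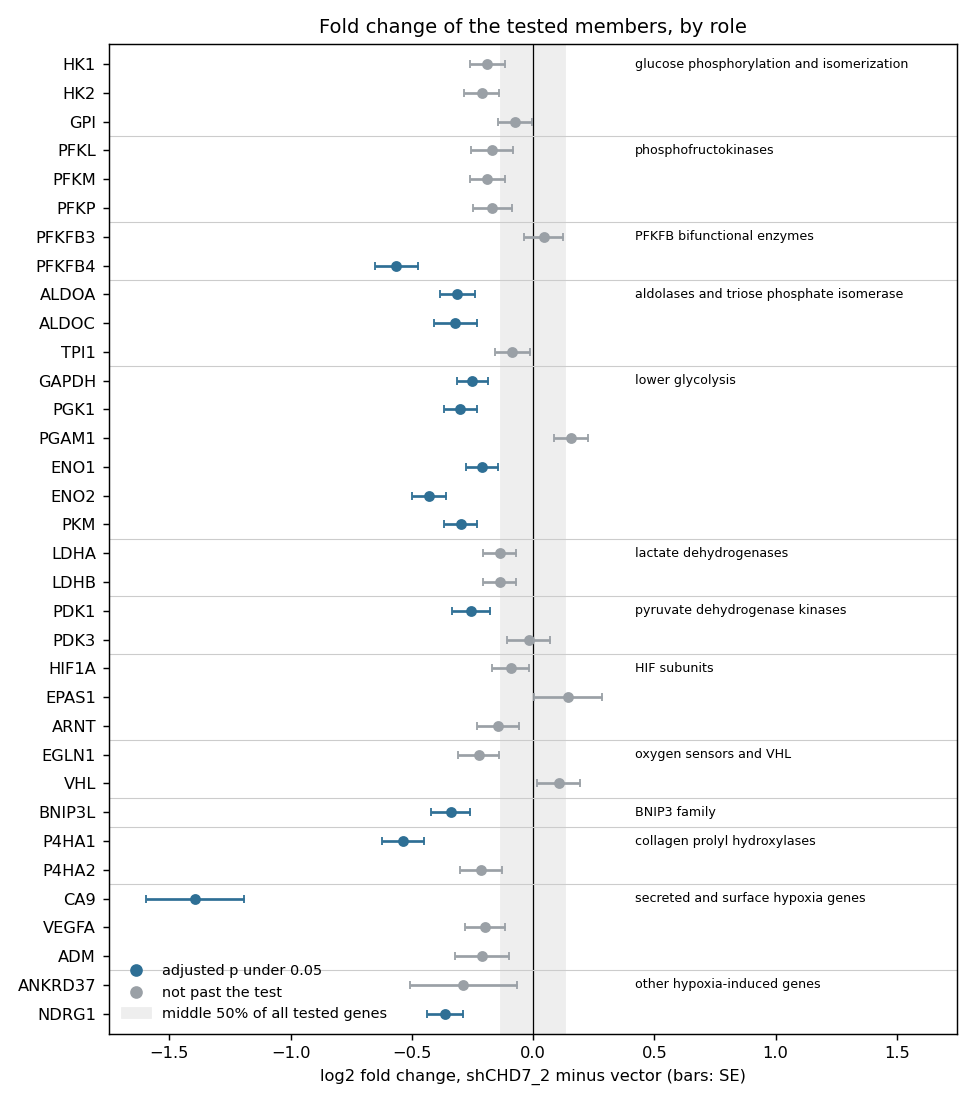
Log2 fold change (shCHD7_2 minus vector) with its SE for the 34 tested members, grouped by role, in blue where the adjusted p was under 0.05 and in grey where it was not, over a band that holds the middle 50% of all tested genes. Of the 34 points 30 lie left of 0, and the lower glycolysis block holds 5 of the 13 blue points.

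At the fate of pyruvate 1 of 4 members passed. LDHA, the subunit that favours lactate formation, was at 1270 and 1321 CPM in the control and at 1162 and 1193 CPM in the CHD7 shRNA-2 samples (log2 fold change -0.14, SE 0.067, adjusted p = 0.21, edgeR). LDHB, its partner subunit, also gave -0.14 (SE 0.069, adjusted p = 0.21, edgeR), from 1047 and 1110 CPM to 968.5 and 991.3 CPM. PDK1, a pyruvate dehydrogenase kinase that HIF-1 induces, fell from 217.4 and 225.5 CPM to 197.6 and 173.5 CPM (log2 fold change -0.26, SE 0.079, adjusted p = 0.038, edgeR). PDK3 gave -0.018 (SE 0.088), with 54.9 and 57.0 CPM against 57.8 and 52.7 CPM, and its groups overlapped. The PDK1 call was lost without either control sample (adjusted p = 0.14 without sample 1 and 0.34 without sample 2, edgeR) and without CHD7 shRNA-2 sample 2 (0.25). It held in 2 of 9 other settings of the test.

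The sensors and effectors of the HIF system did not pass the test. HIF1A, the oxygen-regulated alpha subunit, was at 142.5 and 148.4 CPM in the control and at 140.4 and 132.2 CPM in the CHD7 shRNA-2 samples (log2 fold change -0.093, SE 0.078, adjusted p = 0.50, edgeR). ARNT, the beta subunit, gave -0.14 (SE 0.087). EPAS1, which encodes HIF-2 alpha, was low, at 10.5 and 11.9 CPM against 13.0 and 11.7 CPM, and gave 0.14 (SE 0.14). These are mRNA levels, and the alpha subunits are controlled mainly through protein stability, which was not measured here.

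EGLN1, the main HIF prolyl hydroxylase, gave a log2 fold change of -0.22 (SE 0.085, adjusted p = 0.095, edgeR), from 98.9 and 99.4 CPM to 89.99 and 79.8 CPM. It passed when CHD7 shRNA-2 sample 1 was left out (adjusted p = 0.019, edgeR). EGLN3, a hydroxylase that is itself induced by hypoxia, held 0 counts in both control samples and 1 and 4 counts in the CHD7 shRNA-2 samples, too few to enter the test. VHL gave 0.11 (SE 0.090, adjusted p = 0.50, edgeR), and its groups overlapped.

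CA9, a cell-surface carbonic anhydrase and one of the most hypoxia-dependent genes, showed the largest change of any tested member. It was at 8.95 and 9.31 CPM in the control samples and at 4.37 and 2.57 CPM after CHD7 knockdown, a fall of 62.0% (log2 fold change -1.40, SE 0.20, adjusted p = 5.6e-05, edgeR). Behind these values were 139 and 147 counts in control cells against 70 and 41 after knockdown. The CHD7 shRNA-2 samples differed from each other more than the control samples did, and the log2 fold change was -1.06 without CHD7 shRNA-2 sample 2 and -1.83 without sample 1.

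The secreted factors beside it did not pass. VEGFA, the vascular growth factor, gave -0.20 (SE 0.082, adjusted p = 0.13, edgeR), from 108.0 and 102.0 CPM to 93.1 and 89.9 CPM. ADM, the vasodilator peptide adrenomedullin, gave -0.21 (SE 0.11, adjusted p = 0.24, edgeR), from 27.6 and 28.0 CPM to 21.5 and 26.5 CPM. In both genes the CHD7 shRNA-2 samples lay below the control samples, in ADM by a narrow margin.

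P4HA1, a catalytic subunit of collagen prolyl 4-hydroxylase, fell from 86.7 and 87.5 CPM to 62.7 and 57.4 CPM, a fall of 31.0% (log2 fold change -0.54, SE 0.086, adjusted p = 1.8e-04, edgeR). Its sister subunit P4HA2 was at 67.1 and 72.2 CPM in the control samples and at 62.4 and 57.5 CPM with CHD7 shRNA-2 (log2 fold change -0.22, SE 0.088, adjusted p = 0.12, edgeR). BNIP3L, a mitophagy receptor, fell from 137.8 and 147.3 CPM to 116.7 and 108.8 CPM (log2 fold change -0.34, SE 0.080, adjusted p = 0.0069, edgeR). BNIP3, its close relative, was nearly silent, with 10 and 7 counts in control cells against 2 and 1 after knockdown, and was not tested.

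NDRG1, a hypoxia- and stress-induced gene, fell from 296.8 and 315.6 CPM to 236.7 and 239.5 CPM (log2 fold change -0.36, SE 0.073, adjusted p = 0.0018, edgeR). ANKRD37, a small HIF target, stood at 3.35 and 4.05 CPM against 2.99 and 3.07 CPM (log2 fold change -0.29, SE 0.22, adjusted p = 0.45, edgeR). Without control sample 2 the adjusted p (edgeR) was 0.19 for BNIP3L and 0.097 for NDRG1.

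Levels were compared between genes on the deposited FPKM values, which account for transcript length. GAPDH was the highest member, at 3994 and 3850 FPKM in the control samples, and ranked 15 among the 15357 listed genes by control mean. ENO1, at 1146 and 1104 FPKM, came next, followed by ALDOA at 960 and 899 FPKM and LDHB at 893 and 946 FPKM, whose ranges overlapped. PKM, TPI1 and LDHA followed between 612 and 827 FPKM, and 11 members were among the 500 highest genes. At the other end EPAS1 was at 2.08 and 2.33 FPKM, BNIP3 at 0.43 and 0.30 FPKM, and EGLN3 was listed at 0 in both control samples. The 9 members that fell among the 21 glycolysis genes ran from PFKFB4 at 17.8 and 17.9 FPKM up to GAPDH.

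**Figure D3:**
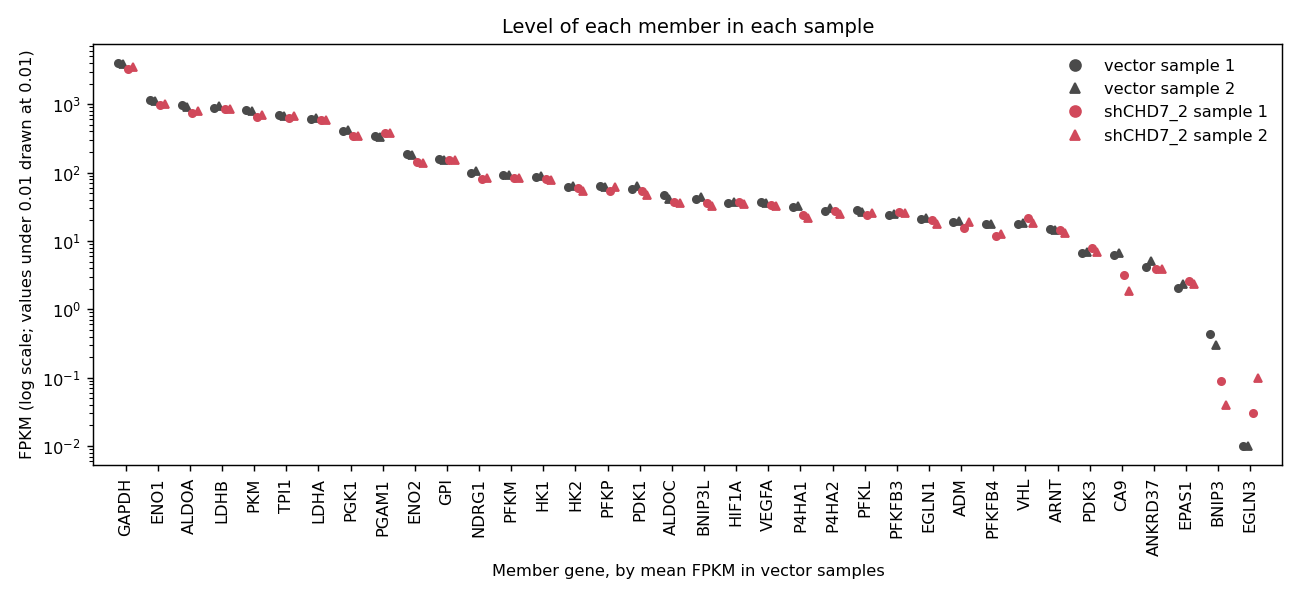
FPKM of each of the 36 members in each of the 4 samples on a log axis, with members ordered by their mean in the vector samples, circles for sample 1, triangles for sample 2, grey for vector and red for shCHD7_2. Levels span from 3994 FPKM for GAPDH to 0 for EGLN3, and the separation of the groups is widest for CA9 among the tested members.

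The share of each isozyme in its family was taken from the FPKM values of each sample. PFKFB4 made up 42.8% and 42.3% of the summed PFKFB3 and PFKFB4 signal in the control samples and 31.3% and 33.5% after CHD7 knockdown. P4HA1 went from 53.9% and 51.6% of the pair with P4HA2 to 46.6% and 46.4%. ENO2 went from 14.1% ± 0.105 (SD, n = 2) of the enolase pair to 12.3% ± 0.413 (SD, n = 2), and PDK1 from 89.6% and 90.2% of the pair with PDK3 to 87.2% and 87.2%.

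In the hexokinase, lactate dehydrogenase and aldolase pairs the shares overlapped between the groups. HK2 made up 42.1% and 42.3% of the hexokinase pair in control cells against 42.3% and 41.3% after knockdown. LDHB was at 59.3% and 59.9% against 59.7% and 59.5% of the lactate dehydrogenase pair, and ALDOC at 4.68% and 4.43% against 4.78% and 4.31% of the aldolase pair. EPAS1 rested on few reads and was at 5.45% and 5.85% of the pair with HIF1A in control cells against 6.70% and 6.46% after knockdown, without overlap. With 2 samples against 2, an exact two-sided permutation test cannot go below p = 0.333, so no test of these shares was made.

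**Figure D4:**
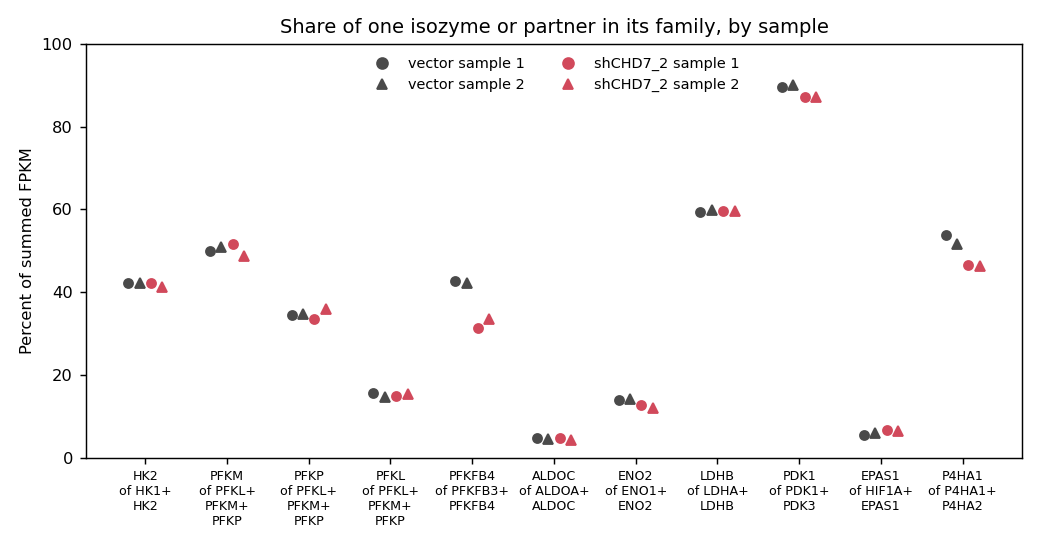
Percent of the summed FPKM of a family that came from the named gene, in each of the 4 samples (circles for sample 1, triangles for sample 2, grey for vector, red for shCHD7_2). PFKFB4 and P4HA1 show the widest gaps between the groups, and the shares of HK2, LDHB and ALDOC overlap.

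Further genes of both pathways were read from lists of other members of the same pathways. Of the 24 tested genes of glucose uptake, glycolysis and pyruvate metabolism reported here, 4 rose (16.7%) and the other 20 did not pass in edgeR, 3 of them being lower and 2 higher at an unadjusted p under 0.05. DESeq2 called 2 higher and 0 lower. The median log2 fold change was 0.025. The main glucose transporter SLC2A1 was at 161.0 and 152.9 CPM in the control samples and at 146.7 and 153.5 CPM with CHD7 shRNA-2 (log2 fold change -0.064, adjusted p = 0.65, edgeR), and the lactate exporter SLC16A3 gave 0.035 (adjusted p = 0.85, edgeR). TIGAR, a p53-induced phosphatase that lowers fructose 2,6-bisphosphate, rose from 42.6 and 45.6 CPM to 58.9 and 58.2 CPM (log2 fold change 0.41, SE 0.088, adjusted p = 0.0033, edgeR). LDHD, a mitochondrial lactate dehydrogenase for the D isomer, rose from 40 and 36 counts to 66 and 82 counts (adjusted p = 0.0082, edgeR), and PDK4 rose from 9 and 12 to 28 and 27 counts (adjusted p = 0.016, edgeR). HKDC1, a hexokinase domain protein, rose from 4 and 4 counts to 29 and 43 (adjusted p = 4.2e-05, edgeR). LDHD, PDK4 and HKDC1 contribute few reads beside LDHA, PDK1 and HK2. PDK4 and HKDC1, among the 4 that rose, entered the test only through the CHD7 shRNA-2 samples, where they were high. Their calls are therefore no independent support for a rise.

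Of 34 other tested hypoxia-response genes 8 fell (23.5%) and 4 rose (11.8%), with a median log2 fold change of -0.0077, and DESeq2 called 4 lower and 3 higher. ERO1A, an oxidase of the endoplasmic reticulum, fell from 332.0 and 339.3 CPM to 215.8 and 195.8 CPM (log2 fold change -0.71, SE 0.076, adjusted p = 9.0e-07, edgeR). MXI1, a MYC antagonist, fell from 72.4 and 72.3 CPM to 48.5 and 45.8 CPM (log2 fold change -0.62, SE 0.087, adjusted p = 3.7e-05, edgeR). GBE1, the glycogen branching enzyme, gave -0.46 (adjusted p = 0.0012, edgeR), the lysyl oxidase gene LOX -0.63 (adjusted p = 0.028), ANGPTL4, an inhibitor of lipoprotein lipase, -0.40 (adjusted p = 0.019) and WSB1 -0.27 (adjusted p = 0.026). Among the genes that rose, TGFA, a ligand of the EGF receptor, gave 1.72 (SE 0.20, adjusted p = 2.2e-06, edgeR), the haem oxygenase HMOX1 0.65 (SE 0.095, adjusted p = 6.2e-05) and the transcriptional repressor BHLHE40 0.32 (SE 0.077, adjusted p = 0.0075). PDGFB, a platelet-derived growth factor, rose from 1 and 1 counts to 17 and 11 (adjusted p = 0.0019, edgeR). It is among the 4 that rose, but it entered the test only through the CHD7 shRNA-2 samples, where it was high. Its call is therefore no independent support for a rise.

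**Figure D5:**
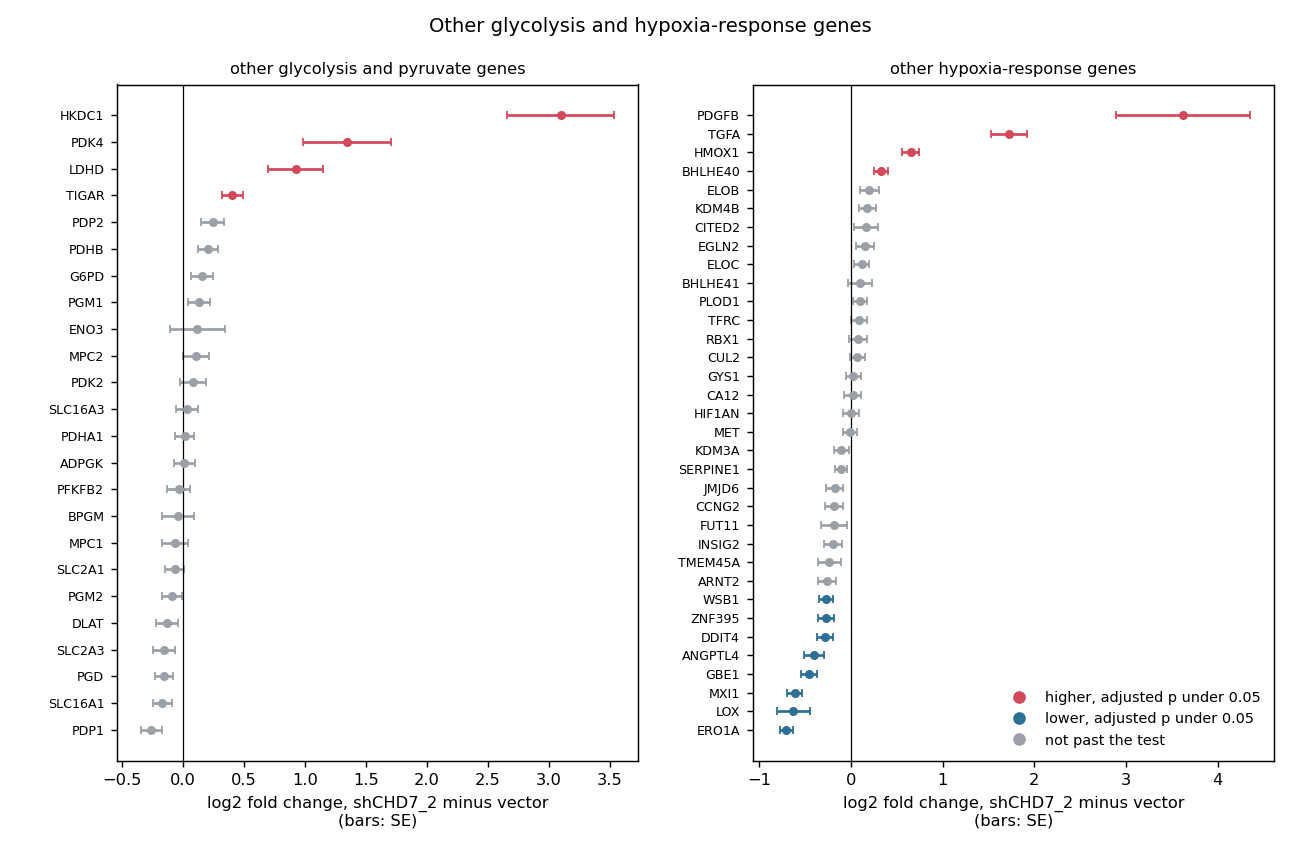
Log2 fold change (shCHD7_2 minus vector) with its SE for 24 other glycolysis and pyruvate genes (left) and 34 other hypoxia-response genes (right), in blue where lower and in red where higher at an adjusted p under 0.05. On the left 4 genes are red, and on the right 8 are blue and 4 are red.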

How the data were processed

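Polyadenylated RNA of 4 RKO samples, 2 control and 2 CHD7 shRNA-2, was sequenced. The submitters' processing notes name Bowtie2, RSEM and DESeq2, with the hg38 build, and the gene annotation is not given in the sources used here. The authors deposited estimated counts, which need not be whole, and FPKM values for 15357 genes. RSEM shares reads of similar genes by estimate, and whether counting used strand is not stated. Members were matched by symbol. Estimated counts were rounded, filtered with filterByExpr, scaled by TMM and tested with edgeR 4.0.16 in R 4.3.3 (quasi-likelihood, Benjamini-Hochberg over 11955 genes). Calls used an adjusted p under 0.05, with or without the study's 1.5-fold threshold. CPM values carry the TMM scaling.

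The scripts were tested on simulated data. Alternatives used RLE factors, unscaled totals, other filters, a replicate block, each sample left out, DESeq2 1.42.0, and limma 3.58.1 on log2(FPKM + 1) or log2(FPKM + 0.1). Library totals ranged from 15734679 to 16068650, and within-group correlations of log values were 0.994. Nothing states that samples of a group came from separate cultures, so p-values measure only the spread between these samples, which may be technical. Members and gene lists were chosen with earlier results of these data known. Every member was accounted for, those with an adjusted p under 0.05 were given in full, and up to 10 genes of each further list with an adjusted p under 0.05 and the smallest p were named. SLC2A1 and SLC16A3 were named outside that rule, after their values were seen. A gene of the further glycolysis list is not reported here.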

Additional observations from a re-analysis of the deposited data

How the results depend on the processing

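No member that passed the test changed direction in any alternative, while PDK3 and VHL, which did not pass, changed sign in some. The 13 calls among the members were 13 with RLE factors and with at least 10 counts in every sample, 11 with unscaled totals and with DESeq2, and 10 in limma at either pseudocount. They fell to 3 (PFKFB4, ENO2 and P4HA1) when edgeR was run with no filter on low counts and to 0 in limma without a filter, where CHD7 was also not called (log2 fold change -0.51, adjusted p = 0.10). Members past 1.5-fold numbered 0 in both unfiltered fits. Of all tested genes 6.45% were called lower with RLE factors and 6.96% with at least 10 counts in every sample. That share was 5.09% with unscaled totals and 4.27% with DESeq2. In the filtered limma fits it was 4.27% on log2(FPKM + 1) and 4.22% on log2(FPKM + 0.1). Genes called in all were 1373, and 800 in DESeq2, 197 without a filter in edgeR and 24 without a filter in limma. Those past 1.5-fold were 344, and 221, 141 and 23 in the same fits and 172 in limma on log2(FPKM + 1). With unscaled totals 40.9% of all calls were lower, against 57.0% with TMM scaling, and the members' median was -0.17. The members' median was -0.15 in limma on log2(FPKM + 1), with or without a filter, and -0.16 on log2(FPKM + 0.1). The median over all genes also moved, from 0.00056 in the main fit to 0.045 with unscaled totals. In limma it was 0.038 on log2(FPKM + 1), 0.022 without a filter and 0.042 on log2(FPKM + 0.1).

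With 1 sample left out, the count of members called ranged from 6 to 14, of which 6 to 14 were lower, members past 1.5-fold from 1 to 2, the median from -0.22 to -0.19 and all genes called from 610 to 1702. Samples with the same replicate number did not deviate together (correlation -0.20). Whether samples of different numbers share a batch was not tested. With the replicate block 755 genes were called and 9 members, ALDOC, ENO1, PDK1 and BNIP3L being lost. A crossed pairing, chosen after seeing the data, called 3751 genes and 25 members, 24 lower and 1 higher. Isozyme shares taken from estimated counts, which ignore transcript length, stood at other levels (in control samples LDHB 45.4% against 59.6% and HK2 53.8% against 42.2%), and the groups were apart or overlapped in the same families as with FPKM.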
